A study of Mus musculus with 2 samples.

Results

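The trypsin-like and pancreatic serine protease genes were examined in total RNA of v6.5 mouse embryonic stem (ES) cells, with 1 library labelled WT and 1 library labelled T29I. Members were all genes of the deposited table whose symbol begins with Prss, Tmprss, Klk or Cela, or is Try with digits, together with Ctrb1, Ctrc, Ctrl, Hpn and St14. This gave 107 of the 51826 listed genes, of which 95 are annotated as protein-coding and 12 as pseudogenes or antisense RNA. The series title names the PRSS1 gene as the one mutated, T29I is a threonine-to-isoleucine change at residue 29, and the strain label of both samples reads NBA1-19349. The labels do not say whether the mutated line is 1 clone or whether 1 or both alleles carry the change. With 1 library per genotype no difference below has a replicate check, no p-value is given, and genotype, clone, culture and library preparation cannot be told apart. The values are TPM (transcript abundance scaled by length, with 1000000 units in each library), always printed with the wild-type library first.

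Most of these enzymes share the chymotrypsin fold, in which a histidine, an aspartate and a serine form the catalytic site, and most are made as inactive zymogens that are switched on by a single cleavage. Trypsinogens, chymotrypsinogens and pancreatic elastases are digestive zymogens of the acinar cell, which secretes them into the gut, where enteropeptidase cuts trypsinogen and trypsin then cuts the others. Kallikreins are secreted proteases encoded in one large gene cluster, and the membrane-anchored proteases such as matriptase and hepsin act at the surface of epithelial cells. In this naming system Prss16 is an exception, since it encodes a thymic serine peptidase of another fold.

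The trypsinogen genes themselves, including the gene named in the title, were not detected in either library. Prss1, Prss2, Prss3, Try4, Try5 and Try10, which lie together on chromosome 6, were each listed at 0 TPM in both, as was Tmprss15, the enteropeptidase that activates them. For Prss1 (ENSMUSG00000062751), a count of 0 allows up to 3 reads, which corresponds to 0.718 TPM for wild type and 0.564 TPM for T29I. The level of Prss1 is therefore no check of the genotype labels. Codon 29 of Prss1 is the threonine codon ACC in the reference, in exon 2 of 5 at chr6:41461225-41461227 (GRCm38, plus strand). The 30 coding bases around codon 29 are shown for all 6 trypsinogen genes, from the GENCODE M21 transcripts and 5′ to 3′ along each gene, because they show how alike the copies are at the mutated residue. Capitals mark codon 29.
Prss1: gttggaggatacACCtgccgagagaattct
Try4: gttggaggatacACCtgccgagagaattct
Try5: gttggaggatacACCtgccgagagaattct
Try10: gttggaggatacACCtgccgagagaattct
Prss2: gttggaggatacACCtgccgagagagttct
Prss3: gttggaggatacACCtgccaagagaattct
These are reference sequences, and no base of the sequenced cells is in the deposited values. Try4, Try5 and Try10 had 0 mismatches to Prss1 over the 30 bases, and Prss2 and Prss3 had 1 each. Over the whole Prss1 transcript, 54.9% of its 50-base windows occur unchanged in a transcript of another gene. The corresponding share was 65.6% for Try4, 66.1% for Prss3, 53.9% for Try5, 40.8% for Try10 and 7.83% for Prss2. Another 5 genes of the same locus hold such windows, namely Gm10334, Gm5771 and the pseudogenes Gm5409, Gm37301 and Gm38306. All 5 were listed at 0 TPM in both libraries too. The treatment of reads that match several copies is not stated in the labels.

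Of the 107 genes, 52 were listed at 0 TPM in both libraries, 30 were above 0 with a mean under 1 TPM, and 25 reached a mean of 1 TPM. Among the 95 protein-coding ones 40 (42.1%) were at 0 in both, against 21.5% of all 21793 protein-coding genes. By role and over all 107 genes, those at 0 in both comprised all 6 trypsinogens, 25 of 38 Klk genes and 7 of 19 membrane-type genes (the Tmprss genes with Hpn and St14). They also held 2 of 7 elastase and chymotrypsin genes and 12 of 37 other Prss genes. These counts include all 12 members that are not protein-coding, which are Klk pseudogenes apart from the antisense Prss23os. Reads per gene were estimated by dividing TPM times annotated exon length by the value of 1 read, and 13 of the 30 genes under 1 TPM had only 1 to 3 reads over both libraries. All 107 genes together made up 141 TPM of the wild-type library and 256 TPM of the T29I library. A set of 10 genes had a T29I excess of 2-fold or more after 1 TPM was added to each value. These 10 held 39.6 and 187 TPM of the sums, and the rest held 101 and 69.4 TPM. The T29I sum was thus larger through these 10 genes, which were picked here by that difference. Some of the rest, such as Klk7 at a ratio of 3.04, also had a 2-fold excess by TPM alone.

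The 25 genes that reached a mean of 1 TPM went in both directions. After 1 TPM was added to each value and log2 taken, a step that shrinks the ratios of weakly expressed genes, 10 were called higher in T29I and 7 called lower, a call being a difference of 2-fold or more. These are 40.0% and 28.0% of the genes, beside 9.97% and 45.7% of all 12943 genes that reached the same mean. The median log2 ratio of the 25 was 0.63, beside -0.84 for all 12943. A gene can reach the mean through 1 library alone, so a count over genes that passed is not independent of their difference: 13 reached 1 TPM in both libraries, 6 in the wild-type library only and 6 in the T29I library only. Just inside the threshold stood Klk5 at 0 and 2.27 TPM and Prss45 at 0.156 and 2.33 TPM, and just outside it Tmprss5 at 1.51 and 0.396 TPM and Prss23 at 0.460 and 0.763 TPM.

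Most genes whose mean reached 1 TPM stood lower in T29I by TPM, so the split depends on the scaling. The median log2 ratio of the 9375 genes whose mean reached 5 TPM, called the shift here, was -0.90. Relative to the shift, 14 of the 25 protease genes were called higher and 0 lower, beside 26.0% and 22.2% of all genes. After adjustment for transcript length and GC content, 11 were higher and 3 (Prss42, Ctrl and Prss22) lower, beside 17.6% and 15.5%. The protease transcripts were short, with a median longest transcript of 1373 bases against 3101 bases for all 12943 genes, and their median GC content was 54.0% against 50.2%. After the adjustment all 10 genes called higher and all 7 called lower as deposited kept their sign. The shift is smaller than the 2-fold limit of a call, so it could not change the sign of these genes. St14, Klk11, Klk10, Cela1 and Tmprss12, none of them called as deposited, changed sign under at least 1 of these scalings. By counting error alone, the 95% interval of the TPM ratio lay wholly above 1 for 13 genes and wholly below 1 for 9, beside 22.8% and 65.1% of all genes with an annotated length. Such intervals cover counting error and not the variation between cultures.

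**Figure D1:**
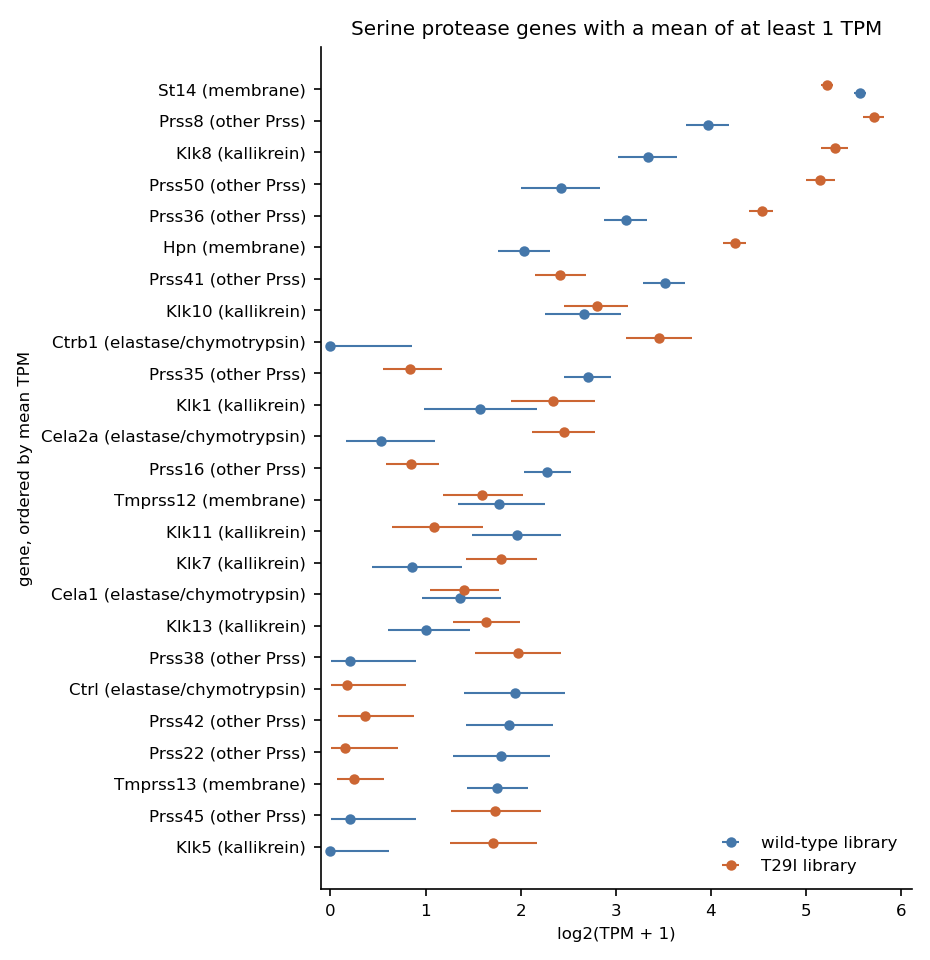
Levels of the 25 protease genes whose mean reached 1 TPM, on the log2(TPM + 1) scale, in the wild-type library (blue) and the T29I library (orange), with 95% exact Poisson counting intervals as bars. The intervals of Klk10, Klk1, Klk11, Klk13, Cela1 and Tmprss12 overlap between the libraries, and Prss8, Klk8, Prss50, Prss36 and Hpn stand to the right in the T29I library.

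**Figure D2:**
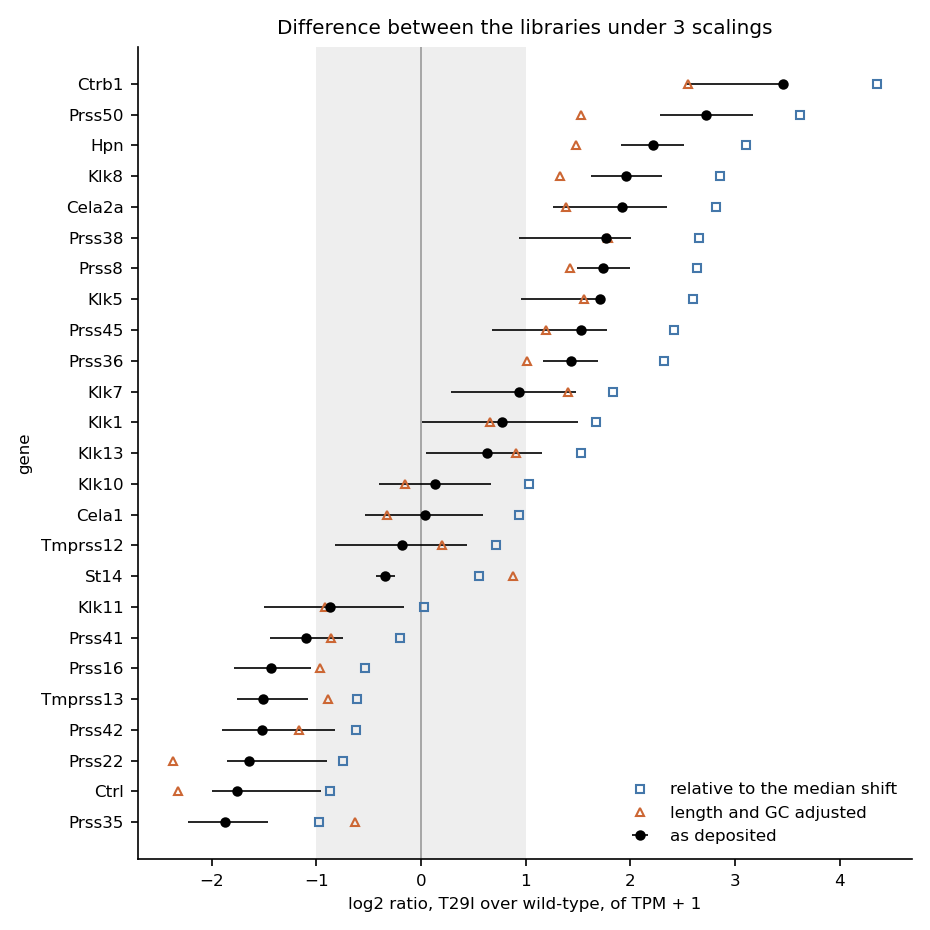
Log2 ratio of T29I over wild-type (TPM + 1) for the same 25 genes as deposited (black, with counting intervals), relative to the median shift (blue squares) and after length and GC adjustment (orange triangles). The grey band marks ratios under 2-fold. The 10 genes at the top lie beyond 1 under all 3 scalings, while the 7 at the bottom lie beyond -1 as deposited and inside the band relative to the shift.

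Among the membrane-type genes, St14 and Hpn were the most abundant and behaved differently. St14 encodes matriptase, a transmembrane protease of epithelia that activates other proteases, and was the highest of all 107 genes in the wild-type library. Its level was 46.3 TPM (counting interval 44.2 to 48.5) in wild type and 36.3 TPM (34.7 to 38.1) in T29I, from 1837 and 1834 estimated reads. T29I was thus 1.27-fold lower (interval 1.19 to 1.36), a smaller difference than the shift of all genes, so its log2 ratio was -0.34 as deposited but 0.55 relative to the shift and 0.88 after adjustment. Hpn, the hepsin gene, stood at 3.10 and 18 TPM, from 66 and 488 reads, a ratio of 5.81 (4.49 to 7.63). Tmprss13 went the other way, at 2.37 and 0.187 TPM from 40 and 4 reads. Tmprss12 was at 2.43 and 2.02 TPM from about 21 and 22 reads, and the interval of its ratio, 0.432 to 1.57, spanned 1. The other 15 membrane-type genes were below a mean of 1 TPM, among them the epithelial protease Tmprss2 at 0.183 and 0.815 TPM and all 7 Tmprss11 genes of chromosome 5.

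Prss8 and Prss36 are neighbours on chromosome 7 and both had higher values in the T29I library. Prss8 encodes prostasin, a lipid-anchored protease that works with matriptase in epithelia. It lies at chr7:127925716-127930104 (GRCm38, minus strand), and Prss36, which encodes a protein with several protease domains in tandem, at chr7:127932638-127946725 on the same strand, 2.53 kb away. Prss8 stood at 14.7 TPM (12.3 to 17.3) and 51.4 TPM (47.5 to 55.6), a ratio of 3.51 (2.92 to 4.24), and was the most abundant of the protease genes in the T29I library. Prss36 stood at 7.60 and 22.1 TPM, a ratio of 2.91 (2.39 to 3.57). The third gene of this group, Prss53, was at 0.812 and 0 TPM. Bckdk, the nearest protein-coding gene that does not overlap Prss8, was at 47.7 and 98.7 TPM. The end of Prss8 overlaps 122 bases of Kat8 on the opposite strand, which was at 42.2 and 17 TPM. The labels do not state whether reads were counted by strand, and 4.05% of the 50-base windows of Prss8 are shared with Kat8.

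Of 35 inhibitors, substrates and partners of these proteases, 7 were at 0 in both libraries, among them Hgf, Spint3 and Spint4, and 12 were above 0 with a mean below 1 TPM, among them the sodium channel genes Scnn1a, Scnn1b and Scnn1g. Spint1 and Spint2 encode the membrane inhibitors of matriptase and prostasin. Spint2 was at 209 and 280 TPM and Spint1 at 57.6 and 28.9 TPM. By TPM, Spint2 alone exceeded St14 plus Prss8 in both libraries, whereas Spint1 alone was below that sum in both. These are RNA levels, and the proteins were not measured. Epcam, an adhesion protein that matriptase can cleave, was at 275 and 127 TPM. F2rl1 and F2r encode receptors opened by trypsin-like proteases and by thrombin, and stood at 62.5 and 23.2 TPM and at 21.5 and 6.26 TPM. Plaur, the urokinase receptor, was at 15.6 and 19.0 TPM.

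The secreted and intracellular inhibitors differed in direction. Spink1, the acinar trypsin inhibitor, was at 35.6 TPM from 135 reads and 2.87 TPM from 14 reads. Serping1, the C1 inhibitor, was at 3.23 and 11.1 TPM, Serpinb6a at 39.7 and 11.4 TPM, Serpine2 at 7.69 and 6.62 TPM and the broad inhibitor A2m at 5.20 and 1.26 TPM. Of the lysosomal proteases that can process trypsinogen, Ctsb was at 49.9 and 43.9 TPM, Ctsl at 47.6 and 28.8 TPM, and Ctsd at 225 and 563 TPM. In the whole list, 16 reached a mean of 1 TPM, of which 3 were called higher and 6 lower as deposited (all genes 9.97% and 45.7%), with a median log2 ratio of -0.45. Relative to the shift 6 were higher and 1 was lower (all genes 26.0% and 22.2%), and after adjustment 7 were higher and 2 lower (17.6% and 15.5%).

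**Figure D3:**
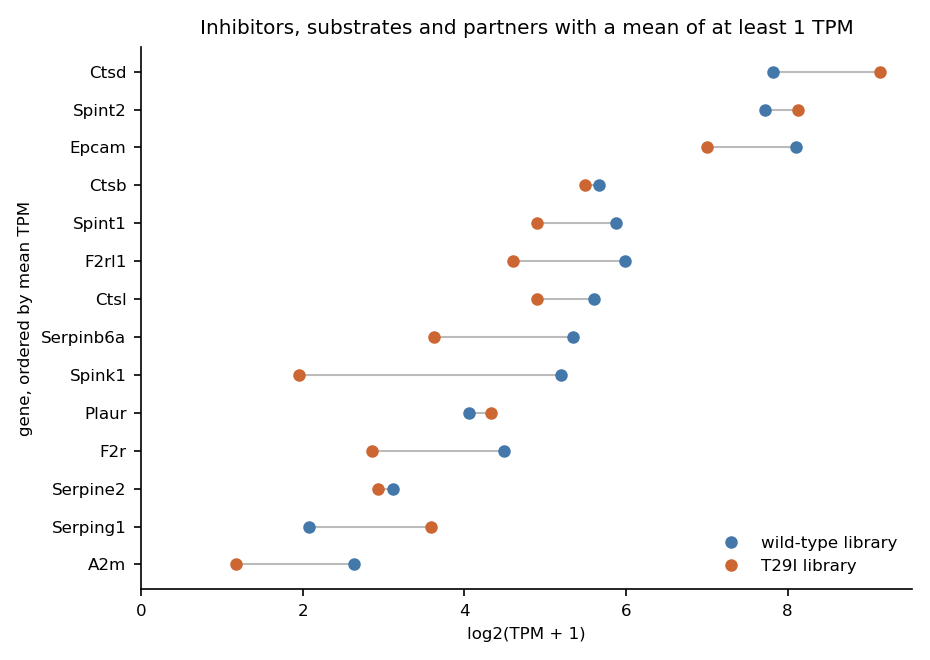
Levels of 14 of the 16 inhibitors, substrates and partners whose mean reached 1 TPM, on the log2(TPM + 1) scale, in the wild-type library (blue) and the T29I library (orange), joined by a line for each gene. Spink1 has the longest line of those drawn, with its higher value in the wild-type library, and Spint2 lies near the top in both libraries.

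The Prss genes known from the testis differed in direction. Prss50 encodes a testis-enriched protease-like protein. It stood at 4.37 TPM (3.01 to 6.13) from 33 reads and 34.5 TPM (30.9 to 38.4) from 332 reads, a ratio of 7.91 (5.52 to 11.7). It lies at chr9:110857967-110864629 (GRCm38, plus strand) at the end of a group of 6 Prss genes that spans 66.5 kb, and its neighbours in the group did not share its level. Prss42 was at 2.68 and 0.287 TPM, from 22 and 3 reads, so it was higher in the wild-type library. Prss45 was at 0.156 and 2.33 TPM, from 1 and 19 reads. Prss44 was at 0.174 and 0.889 TPM, Prss46 at 0 and 0.450 TPM, and Prss43 had 1 read in each library. Prss50 therefore made up most of the 7.45 and 38.5 TPM of this group. Tmie, the next gene beyond Prss50 at 1.08 kb, was at 0.498 and 0.245 TPM.

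A second group, of 7 Prss genes over 213 kb of chromosome 17, had a larger sum in the wild-type library. Prss41, which encodes another protease known from the testis, was at 10.4 TPM (8.79 to 12.3) in wild type and 4.33 TPM (3.43 to 5.45) in T29I, a 2.41-fold deficit (1.80 to 3.21). Relative to the shift its log2 ratio was -0.20. Prss22, which encodes a tryptase of airway epithelium, was at 2.48 and 0.114 TPM from 17 reads and 1 read. The summed level of the group was 14.7 and 5.10 TPM. Prss41 overlaps 318 bases of Prss32 on the opposite strand, and Prss32 was at 0.525 and 0.330 TPM.

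Another 3 Prss genes outside these groups reached a mean of 1 TPM. Prss35, a secreted protease-like protein known from the ovary, was at 5.54 and 0.791 TPM, from 99 and 18 reads, 7.0-fold lower in T29I (4.21 to 12.3). Prss16, the thymic peptidase, was at 3.86 and 0.805 TPM, from about 84 and 22 reads. Prss38 was at 0.155 and 2.92 TPM, from 1 and 24 reads. Its annotated neighbours Wnt9a and Snap47, 39.1 and 31.5 kb away, were also higher in the T29I library. They stood at 0.637 and 7.14 TPM and at 60.7 and 163 TPM. Of 22 such neighbours of the measured protease genes, not proteases of the rule themselves and with a mean of at least 1 TPM, 14 shared the direction of their protease gene. For Prss38, 9.55% of the 50-base windows are shared with the antisense gene Gm15755, which was at 0 and 0.689 TPM.

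The kallikrein genes were represented by 7 of 38 members, and Klk8 was the highest of them in both libraries. All but Klkb1, the plasma kallikrein gene, lie in a single group of 37 genes on chromosome 7 that spans 539 kb. Klk8, which encodes neuropsin, a protease of brain and skin, was at 9.13 TPM (7.16 to 11.5) from 73 reads and 38.4 TPM (34.7 to 42.4) from 391 reads, a ratio of 4.21 (3.27 to 5.48). Its neighbour Klk7 was at 0.813 and 2.48 TPM and Klk5 at 0 and 2.27 TPM, the latter from 0 and 20 reads. Klk5 and Klk7 encode proteases that shed cells from the skin surface. Klk10 was at 5.33 and 5.95 TPM and the interval of its ratio, 0.724 to 1.74, spanned 1. Klk11, which lies 1.77 kb from Klk10, was at 2.89 and 1.14 TPM, from 22 and 11 reads.

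Toward the ends of the cluster, Klk13 was at 1.01 and 2.11 TPM, and Klk1, the kinin-releasing tissue kallikrein, at 1.97 and 4.08 TPM. Between Klk15 and Klk1 lie the 23 Klk1b genes and pseudogenes of the mouse, of which 22 were at 0 in both libraries and Klk1b3 had 1 read in the wild-type library. The Klk1 value is uncertain, because 28.4% of the 50-base windows of its longest transcript also occur in other genes, most of them in Klk1b5. For Klk8, 26.2% of windows are shared with 2310002F09Rik, an antisense transcript listed at 0.0955 and 0.0375 TPM. Of the 7 measured kallikreins 2 were called higher and 0 lower on the deposited scale, where all genes gave 9.97% and 45.7%. The shift gave 6 higher and 0 lower, beside 26.0% and 22.2% of all genes. The adjustment gave 3 and 0, beside 17.6% and 15.5%.

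**Figure D4:**
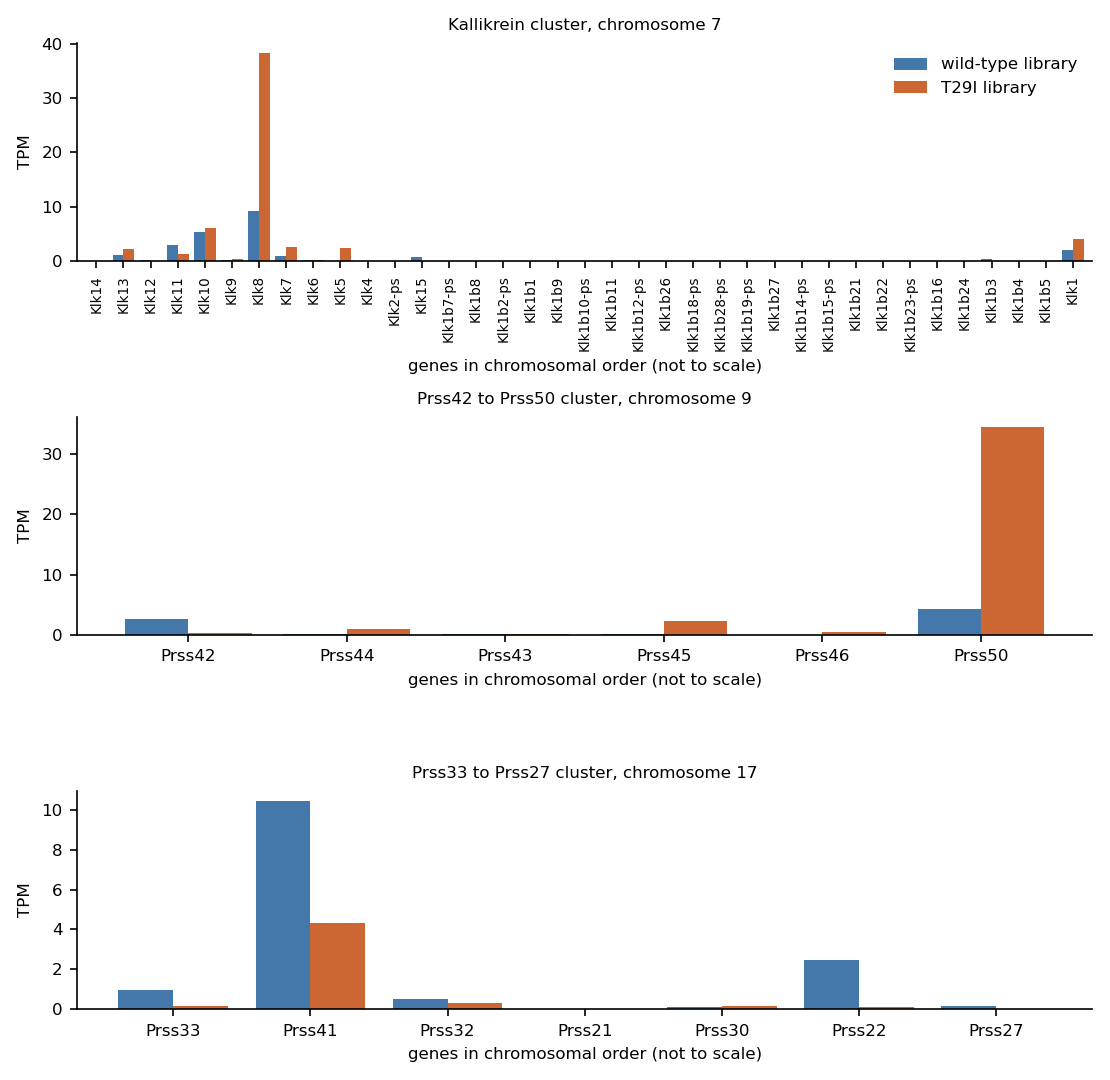
TPM of every annotated member, in chromosomal order, in the kallikrein cluster of chromosome 7 and in the Prss groups of chromosomes 9 and 17, in the wild-type library (blue bars) and the T29I library (orange bars). In each of the clusters 1 gene exceeds its neighbours: Klk8 at 38.4 TPM and Prss50 at 34.5 TPM in the T29I library, and Prss41 at 10.4 TPM in the wild-type library.

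Of the pancreatic zymogens other than trypsinogen, Ctrb1 and Cela2a had reads mainly in the T29I library and Ctrl mainly in the wild-type library. Ctrb1 encodes chymotrypsinogen B and was listed at 0 TPM in the wild-type library, where a count of 0 allows up to 0.658 TPM, and at 9.9995 TPM (7.59 to 12.9) from 58 reads in the T29I library. None of the 50-base windows of Ctrb1 occurs in another gene. Cela2a, an elastase, was at 0.447 and 4.48 TPM, from 4 and 51 reads, a ratio of 10.02 (3.68 to 38.2). Cela2a shares 25.6% of its windows with other genes, and Ctrc, at 0 TPM in both libraries, holds all of these. Cela2a also overlaps 1015 bases of the span of Casp9 on the opposite strand, which was at 9.82 and 6.15 TPM. Ctrl, a chymotrypsin-like enzyme, was at 2.83 and 0.131 TPM, from 17 reads and 1 read. Cela1 was at 1.57 and 1.65 TPM, and the interval of its ratio, 0.547 to 1.99, spanned 1. Ctrc and Cela3a were at 0 in both libraries, and Cela3b had 1 read in the T29I library.

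Other genes of the pancreatic acinar cell were near 0. Of 21 acinar genes outside the serine proteases, 12 were at 0 in both libraries, among them Ptf1a, the transcription factor that sets acinar identity, and Cpa1, Cel and Amy2b. Their summed level was 4.79 and 9.18 TPM. The most abundant were Bhlha15, a transcription factor of secretory cells, at 2.81 and 3.90 TPM, and Clps, a lipase cofactor, at 1.05 and 1.10 TPM from 3 and 4 reads.

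Markers of other cell types differed between the libraries beside the proteases. In bulk RNA, fewer cells of a type and less RNA per cell cannot be told apart. The 5 ES cell markers were all present and summed to 3907 and 2050 TPM. Nanog was at 765 and 140 TPM, Esrrb at 313 and 77.5 TPM and Zfp42 at 544 and 23.3 TPM. Nanog, Esrrb and Zfp42 were called lower in T29I under all 3 scalings, and Pou5f1 and Sox2 under none. The share of all genes called lower was 45.7% as deposited, 22.2% with the shift taken out and 15.5% with length and GC content adjusted for. The 9 trophoblast markers summed to 127 and 911 TPM. Of the 6 that reached a mean of 1 TPM, 4 were called higher and 1 lower as deposited, beside 9.97% and 45.7% of all genes. Those called higher were Krt8 at 28.6 and 389 TPM, Krt18 at 15.4 and 353 TPM, Hand1 at 0.868 and 79.5 TPM and Ascl2 at 2.02 and 32.0 TPM, and the one called lower was Eomes at 6.21 and 2.19 TPM. Tfap2c was at 73.4 and 53.1 TPM, and Gata3, Cdx2 and Elf5 had means below 1 TPM. The 8 blood markers summed to 2.48 and 1258 TPM. Hbb-bs was at 0 and 1245 TPM, Hba-a1 at 0 and 8.02 TPM and Gata1 at 1.58 and 2.61 TPM, while Ptprc was at 0.0325 and 0.0128 TPM and Cpa3 at 0 in both. The 8 testis germ cell genes summed to 41.1 and 36.5 TPM and went both ways. Ddx4 was at 23.2 and 3.67 TPM, whereas Sycp3 was at 10.2 and 16.3 TPM, Dazl at 6.55 and 12.5 TPM and Tex101 at 0.814 and 4.02 TPM, and Prm1 and Tnp1 were at 0 in both. The 7 primitive endoderm markers summed to 8.66 and 2.58 TPM, of which Sox7 was 6.02 and 0.184 TPM. The others had means below 1 TPM, with Gata4, Dab2 and Sox17 higher in T29I and Gata6, Foxa2 and Pdgfra lower. The 7 fibroblast markers summed to 6.18 and 19.5 TPM, of which Thy1 was 4.57 and 17.6 TPM and Col1a1 0.939 and 1.38 TPM. The remaining fibroblast markers had means below 1 TPM, with Col1a2 higher in T29I, Col3a1, Dcn and Postn lower, and Lum at 0 in both. The part of these cell types in the protease values was not tested.

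Other serine proteases whose symbols fall outside the naming rule were also examined. Of 47 such genes, from the coagulation, complement, granzyme, mast cell and HtrA families, 23 were at 0 in both libraries and 8 reached a mean of 1 TPM. The most abundant were Htra1 at 34.1 and 37.9 TPM, Htra2, a mitochondrial protease, at 20.8 and 27.0 TPM, and C1s1, a complement protease, at 7.94 and 1.64 TPM. Of the 8, 1 was called higher and 1 lower as deposited (all genes 9.97% and 45.7%), with a median log2 ratio of 0.27. Relative to the shift 6 were higher and 0 lower (26.0% and 22.2%), and after adjustment 1 was higher and 0 lower (17.6% and 15.5%).

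The promoters that could be matched to protease genes held few CG pairs, a feature that the naming rule did not use. RefSeq promoters of 300 bases (250 before and 50 after the start, GRCm38.p6) were matched by symbol for 76 of the 107 genes and 20 of the 25 measured ones. The measured genes without a match were St14, Prss8, Prss16, Prss22 and Tmprss13. St14 and Prss8, the most abundant protease genes by mean, are therefore not covered. For a gene with several promoters the richest was taken. The median was 6 CG pairs for the 20 genes, 5 for the 24 genes below 1 TPM and 2 for the 32 genes at 0. Over all genes it was 22 where the mean reached 1 TPM, 18 for those between 1 and 5 TPM and 2 for those at 0 in both libraries. At least 10 CG pairs were found in 9 of the 20 genes (45.0%), in 1 of the 32 genes at 0 (3.13%), and in 86.3% of all genes whose mean reached 1 TPM. Among the 9 were Klk8 with 23, Prss50 with 21 and Hpn with 11, and also Prss35 with 12 and Prss41 with 10, so these counts did not separate genes higher in one library from genes higher in the other.

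The 150 bases before the start are shown for Klk8 and Prss50, the richest of the measured genes in CG pairs, and for Ctrb1 and Prss1, which represent the pancreatic zymogens. Capitals mark each CG pair and any TATAAA, the TATA box sequence. Klk8 lies at chr7:43797427-43797576 (plus strand), Prss50 at chr9:110857814-110857963 (plus), Ctrb1 at chr8:111691011-111691160 (minus) and Prss1 at chr6:41458780-41458929 (plus), all on GRCm38.p6.
Klk8: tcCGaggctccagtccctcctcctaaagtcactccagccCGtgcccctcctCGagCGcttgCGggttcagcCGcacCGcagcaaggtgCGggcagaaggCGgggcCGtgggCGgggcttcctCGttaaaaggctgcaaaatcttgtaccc
Prss50: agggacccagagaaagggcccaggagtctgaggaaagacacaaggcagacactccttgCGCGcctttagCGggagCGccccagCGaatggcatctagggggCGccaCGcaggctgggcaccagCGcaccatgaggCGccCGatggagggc
Ctrb1: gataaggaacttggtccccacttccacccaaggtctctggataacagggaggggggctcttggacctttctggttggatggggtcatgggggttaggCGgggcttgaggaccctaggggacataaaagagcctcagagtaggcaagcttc
Prss1: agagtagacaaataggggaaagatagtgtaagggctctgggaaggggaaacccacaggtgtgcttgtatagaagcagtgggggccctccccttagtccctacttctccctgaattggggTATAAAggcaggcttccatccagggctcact
In these 150 bases Klk8 had 12 CG pairs, Prss50 had 10, Ctrb1 had 1 and Prss1 had 0. TATAAA, searched on both strands, occurred in 9 of the 76 protease promoters (11.8%), in 6 of the 32 at 0 (18.8%) and in 1 of the 20 measured ones (5.0%), beside 14.3% of all 19112 genes with a promoter. CACCTG, a sequence bound by E-box factors and searched on both strands, occurred in 43 of the 76 (56.6%), beside 22.5% of all genes. The Klk1b promoters supplied 12 of these 43. TTTCCC, also searched on both strands, occurred in 27.6% of the 76 promoters and 28.2% of all genes. Matches of different motifs may share bases, and a match is a description of letters only.

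**Figure D5:**
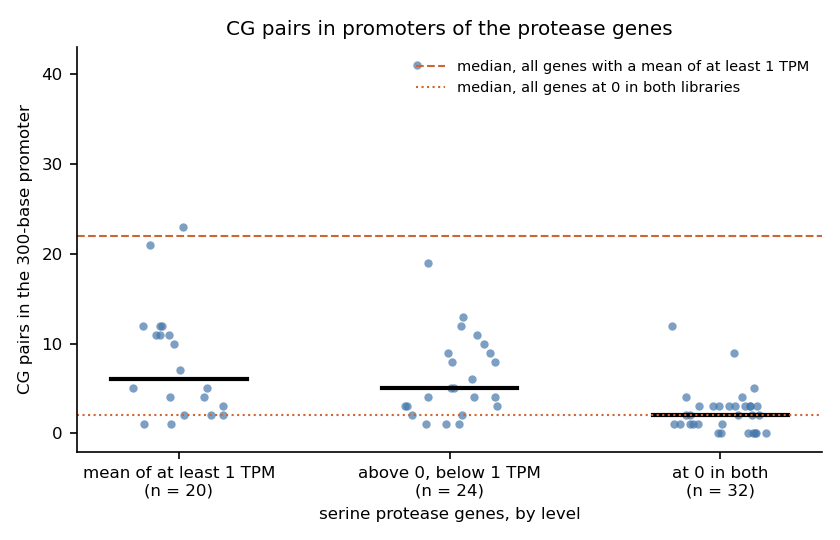
CG pairs in the 300-base promoters of 76 protease genes, split by level into those with a mean of 1 TPM or more, those above 0 and below 1 TPM, and those at 0 in both libraries, with the median of each as a black bar. Dashed and dotted lines give the medians of all genes whose mean reached 1 TPM (22) and of all genes at 0 in both libraries (2), and the protease medians of 6, 5 and 2 lie at or near the lower line.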

How the data were processed

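RNA was extracted with Isogen and ribosome-depleted stranded libraries were made with Illumina's TruSeq and Ribo-Zero reagents, per the labels' protocols. The authors deposited 1 table of TPM per gene, and each column sums to 1000000. For the aligner, counter, build and annotation: not given in the sources used here. Columns were assigned through the sample descriptions. Of 51826 gene identifiers, 51633 matched GENCODE M21 (GRCm38), which gave positions, lengths and GC content.

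TPM times merged exon length, divided by the value of 1 read, was whole within 0.05 for 81.0% of wild-type and 79.9% of T29I values, against 10.0% by chance. This gave 16910002 and 15281662 reads in all. For 20 of the 25 measured protease genes both values were whole. For St14, Prss41, Prss16, Tmprss12 and Cela1 at least 1 was not, and the nearest whole number is given. Intervals are 95% exact Poisson or, for ratios, exact Clopper-Pearson, and cover counting error only. A count of 0 was read as at most 3 reads.

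Ratios used log2(TPM + 1). The shift is the median over genes whose mean reached 5 TPM. The adjustment took residuals of a quadratic surface in GC content and log2 length of the longest transcript, fitted over 9100 protein-coding genes. The read recovery and the adjustment were tested on simulated data. Windows of 50 bases were compared on both strands with all GENCODE transcripts, since no read length is stated in the labels. Genes named are all members with a mean of at least 1 TPM, the trypsinogens and Tmprss15, the inhibitor and substrate list members with such a mean, up to 3 abundant genes of other lists, and some neighbours, low members and markers chosen after their values were seen. A few genes of these lists are not reported here by name. Members and lists were chosen with earlier results of these data known. Software was Python 3.11.15, pandas 2.3.3, SciPy 1.17.1 and matplotlib 3.10.9.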

Additional observations from a re-analysis of the deposited data

How the results depend on the processing

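The split between higher and lower protease genes depended on scaling and on the level filter. On the deposited scale 10 genes were called higher in T29I and 7 lower. The lower count became 0 relative to the shift and 3 after length and GC adjustment. With a mean of at least 5 TPM, 8 genes were left, of which 5 were higher and 1 lower. The share of all genes called at that filter is not given here, so these counts have no comparison. The higher count was 10 to 14 under the pseudocount, shift, adjustment, lower-filter and protein-coding settings. The median log2 ratio ranged from -0.02 with no filter on low values to 1.59 with a mean of at least 5 TPM. No gene called as deposited changed sign after adjustment. A pseudocount of 0.1 or 0.5 cannot change a sign, and the shift is too small to change that of a called gene. The cause of the moved counts was not tested. Low read numbers limit most genes, since 17 of the 25 had a mean below 5 TPM. No paired analysis was possible because each group had 1 library.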
